A study of Mus musculus with 7 samples.

Results

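The genes described here are 9 cell surface receptors for nucleotides, thrombin and related ligands, measured by bulk RNA-seq in sorted mouse haematopoietic stem cells. They are the ATP-gated ion channel P2rx1, the ADP receptors P2ry1 and P2ry12, the UDP-sugar receptor P2ry14, the lysophosphatidylserine receptor Gpr34, the protease-activated receptors F2r, F2rl2 and F2rl3, and the thromboxane receptor Tbxa2r. They were chosen by name from these receptor families, with earlier results of these data known, and make up 9 of the 34932 genes with a value. All 9 passed the filter on low counts and belong to the 14695 genes tested.

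The study compared 4 libraries labelled B4galt1 KO with 3 labelled B4galt1 WT. B4galt1 encodes a galactosyltransferase that extends the sugar chains of glycoproteins. The KO mice are given as 129S1/C57Bl/6, B4-/-, a full knockout in all cells of the animal, and the WT mice as 129S1/C57Bl/6. In both groups LT-HSCs (long-term haematopoietic stem cells, which can rebuild every blood lineage) were flushed from tibia and femur and sorted as Lineage-, Sca-1+, cKit+, CD150+, CD48-. Age, sex, and whether each replicate is 1 animal or a pool are not given in the sources used here, so the spread between replicates may be partly technical. Libraries held 24724079 to 34941390 estimated reads in KO and 23508985 to 30325691 in WT.

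Purinergic receptors read nucleotides outside the cell: P2X receptors are channels opened by ATP, and P2Y receptors are G protein-coupled. Protease-activated receptors are switched on when thrombin cuts their outer end, which then acts as a tethered ligand. In mouse platelets thrombin signals through the product of F2rl3 (PAR4), with the product of F2rl2 (PAR3) as its cofactor, and ADP acts through P2ry1, coupled to Gq, and P2ry12, coupled to Gi. Platelets and their parent cells, megakaryocytes, are where several of these genes are best known, and LT-HSCs share part of that RNA programme.

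The promoters of the 4 receptors below are shown because their levels did not overlap between the groups and RefSeq gave a sequence for them. RefSeq's table for GRCm38.p6 matched 8 of the 9 receptors, and each stretch runs 5′ to 3′ on the gene's strand from 250 bases before the transcript start to 50 after it. They lie at chr3:59262936-59263235 (P2ry12, minus strand), chr3:59153443-59153742 (P2ry14, minus strand, of 4 entries the one nearest the annotated start), chr3:61002535-61002834 (P2ry1, plus strand) and chr13:95696670-95696969 (F2rl2, plus strand). Capitals mark matches, on either strand, to the core motifs of factor families active in megakaryocytes and stem cells: GATAA (GATA) and GGAAG (ETS). TGTGGT (RUNX) was also searched and had no match in these 4 stretches.
P2ry12: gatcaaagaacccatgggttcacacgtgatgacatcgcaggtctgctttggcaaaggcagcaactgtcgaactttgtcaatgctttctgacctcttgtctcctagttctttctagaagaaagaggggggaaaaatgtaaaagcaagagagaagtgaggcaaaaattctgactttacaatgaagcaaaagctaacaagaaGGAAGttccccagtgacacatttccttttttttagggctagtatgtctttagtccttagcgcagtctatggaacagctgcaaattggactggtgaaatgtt
P2ry14: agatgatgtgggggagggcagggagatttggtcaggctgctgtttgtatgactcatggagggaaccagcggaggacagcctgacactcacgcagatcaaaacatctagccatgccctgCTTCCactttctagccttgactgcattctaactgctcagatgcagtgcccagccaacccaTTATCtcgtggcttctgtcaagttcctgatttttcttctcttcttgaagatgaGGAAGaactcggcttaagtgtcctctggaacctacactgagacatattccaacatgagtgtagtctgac
P2ry1: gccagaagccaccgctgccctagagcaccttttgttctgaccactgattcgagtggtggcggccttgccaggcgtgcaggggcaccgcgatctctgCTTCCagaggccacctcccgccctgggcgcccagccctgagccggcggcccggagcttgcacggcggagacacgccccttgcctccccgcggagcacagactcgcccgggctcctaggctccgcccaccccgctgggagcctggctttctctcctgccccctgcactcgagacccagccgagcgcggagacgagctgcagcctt
F2rl2: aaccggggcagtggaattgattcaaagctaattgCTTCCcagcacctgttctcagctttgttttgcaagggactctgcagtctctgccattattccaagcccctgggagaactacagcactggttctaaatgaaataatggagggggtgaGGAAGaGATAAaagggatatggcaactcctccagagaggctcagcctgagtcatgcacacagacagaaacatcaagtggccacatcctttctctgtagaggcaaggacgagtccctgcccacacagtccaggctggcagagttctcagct
The GATA core stood 72 bases before the start of P2ry14 and 94 bases before that of F2rl2, and these letters were not in the windows of P2ry12 and P2ry1. An ETS core was in each of the 4, for instance 51 bases before the start of P2ry12. Over the 8 matched receptors GATAA was in 4, GGAAG in 6 and TGTGGT in 1, that of F2r. Among all 32851 promoters of this length in the table, 25.4% held GATAA, 71.4% GGAAG and 16.8% TGTGGT. No base belonged to matches of 2 motifs.

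Markers and the targeted gene were checked before the receptors. B4galt1 was at 15.9 ± 2.28 CPM (reads scaled to library size) in KO and 18.3 ± 6.62 CPM in WT (SD, n = 4 and 3), with a log2 fold change of -0.20 (SE 0.27, edgeR adjusted p = 0.758) that turned to 0.04 without WT replicate 2. Its RNA thus does not separate the groups, so KO below stands for the libraries labelled KO and every direction rests on the labels. Of 18 LT-HSC markers 1 fell, Mllt3, and 0 rose (6 lower at an unadjusted p below 0.05, 3 lower with DESeq2 and 3 with limma voom); Kit, Ly6a and Slamf1 were present in both groups and did not pass. Of 30 megakaryocyte and platelet markers 23 fell and 0 rose (0 higher also at an unadjusted p below 0.05, with DESeq2 and with limma voom), and their summed level was 5177 to 7461 TPM (reads scaled to transcript length and depth) in KO and 16467 to 24730 TPM in WT, with none of them at 0. In bulk samples fewer cells of a type and less RNA per cell cannot be told apart. Mllt3 lost its call without KO replicate 2 (adjusted p = 0.0516) and without WT replicate 3 (adjusted p = 0.0534), and 20 to 24 of the megakaryocyte markers fell with 1 library left out. Y-linked RNA was near absent in KO replicate 4 and WT replicate 3, at 10.9 and 6.04 CPM for 4 genes together, against 256 to 365 CPM in the other 5 libraries. Ly6g, Pax5, Gzma, Slc4a1, Cdh5 and Col3a1, markers of granulocytes, B cells, cytotoxic lymphocytes, erythrocytes, endothelium and stroma, had 0 reads in all 7 libraries, but other members of their lists were present. Of 9 tested granulocyte markers Ms4a3 rose (1.70) and S100a9 fell (-2.22), and 8 had an unadjusted p below 0.05 (4 higher and 4 lower). DESeq2 called 3 of them higher and 3 lower, and limma voom 3 and 4. Of 12 erythroid markers Sptb fell (-2.54), and Hba-a1, at 2.90 ± 5.2 CPM in KO and 94.9 ± 42.9 CPM in WT, did not pass (adjusted p = 0.0622). Of the 12, 7 lay above 0 and 5 below, and Hbb-bt (1.51) and Klf1 (1.26), both above, did not pass. At an unadjusted p below 0.05 2 were higher and 3 lower, with DESeq2 0 and 1, and with limma voom 0 and 3. Of 8 endothelial and stromal markers Sparc rose (2.99), and Kdr (-1.58, edgeR adjusted p = 0.166) did not pass. Of the 8, 3 lay above 0 and 5 below. At an unadjusted p below 0.05, with DESeq2 and with limma voom, 1 was higher and 1 lower. With 1 library left out, Ms4a3 lost its call without KO replicates 1, 2 and 3 and WT replicates 1 and 3, S100a9 without any library but WT replicate 1, Sptb without KO replicates 2 and 3 and WT replicates 1 and 2, and Sparc without WT replicates 1 and 2 (adjusted p up to 0.163). Of 9 lymphoid markers edgeR called 0 (4 at an unadjusted p below 0.05, 1 with DESeq2 and 1 with limma voom), with Nkg7 at 274 ± 75.0 CPM in KO and 168 ± 41.8 CPM in WT, and of 11 dendritic cell markers 0 (2 at an unadjusted p below 0.05, 1 with DESeq2 and 0 with limma voom).

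The 9 receptors differed in direction. P2ry12, F2rl2 and P2ry1 were lower in every KO library than in any WT library, P2ry14 and Gpr34 were higher in every KO library, and P2rx1, F2r, F2rl3 and Tbxa2r overlapped between the groups. With edgeR at an adjusted p below 0.05, 2 of the 9 were called higher (P2ry14 and Gpr34), where the share over all tested genes was 0.599%, and 2 lower (P2ry12 and F2rl2), where it was 1.66%, together 4 against a share of 2.26%. Groups that did not overlap in CPM were seen for 5 of the 9 and for 15.7% of all tested genes. The same contrast was in view when the receptors were chosen, so these counts and the values below describe them and test nothing. The median log2 fold change (KO over WT) of the 9 was -0.42, with 3 above 0 and 6 below, and that of all tested genes 0.03.

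**Figure D1:**
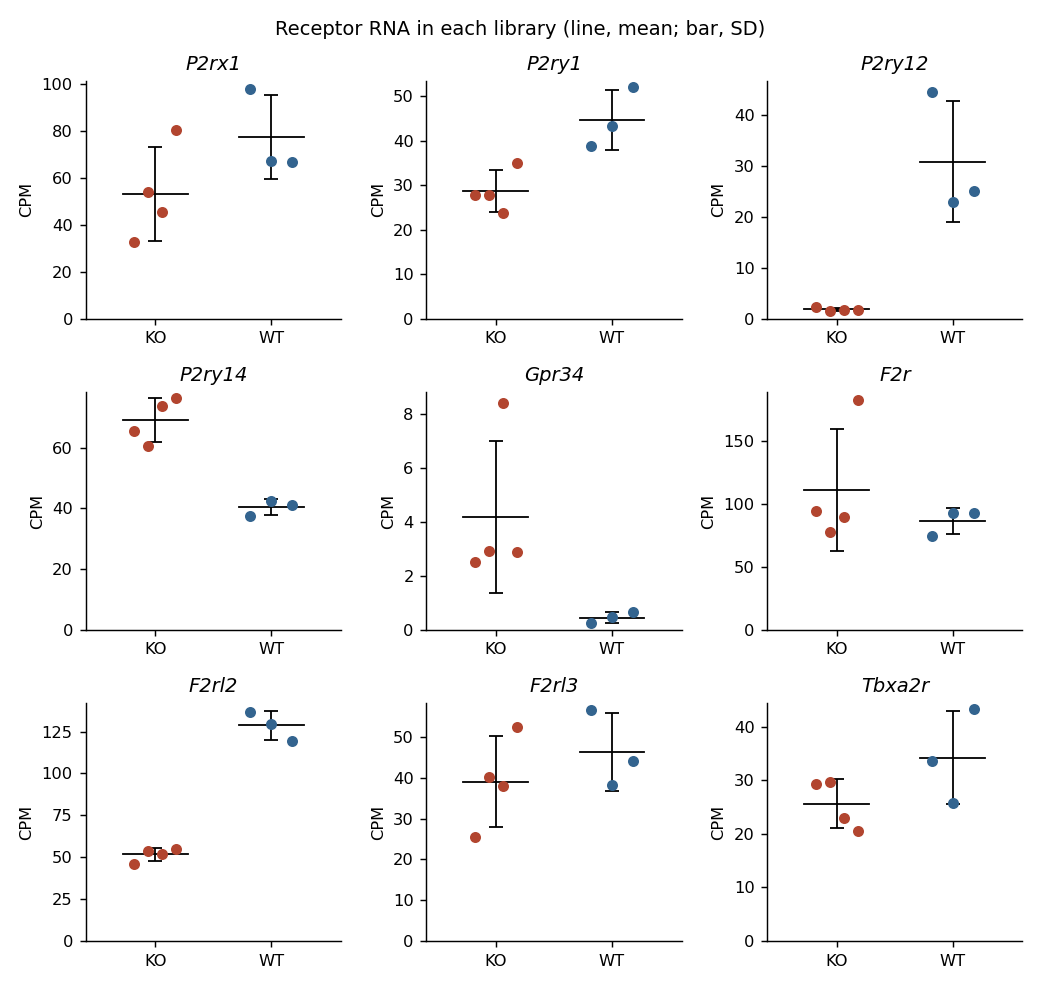
CPM of each of the 9 receptors in the 4 KO libraries (left in each panel) and the 3 WT libraries (right); each point is 1 library, the line is the mean and the bar the SD. P2ry12 lies at 1.59 to 2.26 CPM in KO and 22.9 to 44.4 CPM in WT, and P2ry14 and Gpr34 lie higher in all KO libraries.

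P2ry12, the ADP receptor that lowers cyclic AMP through Gi in platelets, had 2.26, 1.59, 1.65 and 1.70 CPM in KO replicates 1 to 4, against 44.4, 22.9 and 25.1 CPM in WT replicates 1 to 3. All KO libraries were low and close to each other, and WT replicate 1 was the highest. In log2 fold change this was -4.10 (SE 0.30), a level 17.1-fold lower in KO. These CPM values rest on 58, 43, 45 and 63 reads in KO and 1308, 488 and 582 reads in WT. The gene lies on chromosome 3 (59216272 to 59262871, minus strand, GRCm38).

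P2ry1, the Gq-coupled ADP receptor that starts platelet shape change, had 27.8, 27.7, 23.8 and 35.1 CPM in KO, against 38.8, 43.3 and 52.0 CPM in WT. The groups did not overlap, but the highest KO and the lowest WT library were close, and per length they did overlap. Its log2 fold change was -0.64 (SE 0.19), and it was not among the 4 called. The gene (chromosome 3, 61002795 to 61008982, plus strand) shares 992 of its 4291 exon bases with the antisense gene Gm37035. The kit does not mark strand, so within the 992 shared bases reads of the pair cannot be told apart.

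P2rx1, the ATP-gated cation channel of platelets and smooth muscle, had 32.7, 54.1, 45.2 and 80.4 CPM in KO, against 97.9, 67.1 and 66.7 CPM in WT. KO replicate 4 lay within the WT range and the other KO libraries below it. Its log2 fold change was -0.54 (SE 0.28), -0.35 without WT replicate 1 and -0.90 in the 5 libraries with Y-linked RNA. P2rx1 lies on chromosome 11 (72999103 to 73015200, plus strand).

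P2ry14, the receptor for UDP-glucose and related UDP-sugars that is known from blood stem and progenitor cells, had 65.7, 60.5, 73.9 and 76.3 CPM in KO, against 37.5, 42.6 and 41.1 CPM in WT. Both groups were narrow and well apart, with a log2 fold change of 0.77 (SE 0.16), a level 1.71-fold higher in KO. It was 0.51 when the fit corrected for average transcript length. P2ry14 lies on chromosome 3 (59113855 to 59153618, minus strand).

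Gpr34, a receptor for lysophosphatidylserine known from microglia and mast cells, had 2.50, 2.92, 8.41 and 2.89 CPM in KO, against 0.238, 0.468 and 0.647 CPM in WT. KO replicate 3 was far above the other KO libraries, and all of these lay above WT. The log2 fold change was 3.21 (SE 0.63), a level 9.27-fold higher in KO, and 2.61 without KO replicate 3. The WT values rest on 7, 10 and 15 reads and the KO values on 64, 79, 230 and 107 reads. The gene lies on the X chromosome (13632089 to 13640858, plus strand), and in the 5 libraries with Y-linked RNA its log2 fold change was 3.73.

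F2r, the main thrombin receptor (PAR1) of endothelium and of human platelets, had 94.6, 77.8, 90.1 and 183 CPM in KO, against 74.9, 92.7 and 93.1 CPM in WT. Without KO replicate 4, which stood alone, the groups covered nearly the same range. The log2 fold change was 0.36 (SE 0.28), 0.02 without that library, 0.01 with replicate number as a block and 0.08 in the libraries with Y-linked RNA. F2r lies on chromosome 13 (95601803 to 95618487, minus strand).

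F2rl2, the cofactor for thrombin signalling on mouse platelets, had 46.2, 53.7, 52.1 and 55.0 CPM in KO, against 137, 129.8 and 119 CPM in WT. The spread within each group was small beside the distance between them. The log2 fold change was -1.31 (SE 0.14), a level 2.48-fold lower in KO, and it ran from -1.38 to -1.28 over all alternative settings. F2rl2 lies on chromosome 13 (95696853 to 95702739, plus strand).

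F2rl3, which encodes the signalling thrombin receptor of mouse platelets, had 25.4, 40.3, 37.9 and 52.5 CPM in KO, against 56.7, 38.1 and 44.1 CPM in WT. The log2 fold change was -0.25 (SE 0.24), and -0.09 without WT replicate 1. The groups overlapped, whereas those of its cofactor F2rl2 did not. Tbxa2r, the receptor for thromboxane A2, had 29.3, 29.6, 23.0 and 20.5 CPM in KO, against 33.6, 25.8 and 43.2 CPM in WT, with a log2 fold change of -0.42 (SE 0.23). It was -0.11 in the libraries with Y-linked RNA and -0.23 without WT replicate 3. F2rl3 lies on chromosome 8 (72761880 to 72763874) and Tbxa2r on chromosome 10 (81328731 to 81335172), both on the plus strand.

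Compared per length, in TPM, the receptors took another order in each group. By the median of the KO libraries P2ry14 came first at 39.0 TPM, F2r followed at 29.6 and F2rl2 was sixth at 21.97, while P2ry12, at 0.884 TPM, was below Gpr34 at 1.73. A 339 nt transcript gave 41.2%, 31.0%, 25.2% and 21.2% of the P2ry14 TPM in KO, from 1.90% to 4.59% of its reads. In WT this transcript gave 33.1%, 56.8% and 45.3%, from 3.97% to 7.73% of the reads. Its level was 14.7, 11.4, 11.2 and 8.72 TPM in KO replicates 1 to 4. Without it the KO median of P2ry14 would lie below that of F2r, so the first place of P2ry14 rests on this transcript. By the median of the WT libraries F2rl2 came first at 48.4 TPM, followed by F2rl3 at 32.2, P2rx1 at 30.6, Tbxa2r at 27.7, F2r at 22.9, P2ry14 at 21.7, P2ry1 at 12.1, P2ry12 at 11.2 and Gpr34 at 0.181 TPM. Between neighbours in the WT order the WT ranges overlapped, except for F2rl2 and F2rl3, P2ry14 and P2ry1, and P2ry12 and Gpr34. Those of P2ry14 and P2ry1 would overlap too without the 339 nt transcript. In KO the range of P2ry14 (35.7 to 44.6 TPM) overlapped those of F2r (24.8 to 70.7), F2rl3 (18.3 to 46.0) and P2rx1 (15.5 to 44.5). The P2ry14 range lay above those of Tbxa2r (20.6 to 25.9) and F2rl2 (18.6 to 27.0) only with the 339 nt transcript counted. Much of the KO order is thus unresolved. In TPM 4 of the 9 did not overlap between the groups, where the share of all tested genes was 20.2%.

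**Figure D2:**
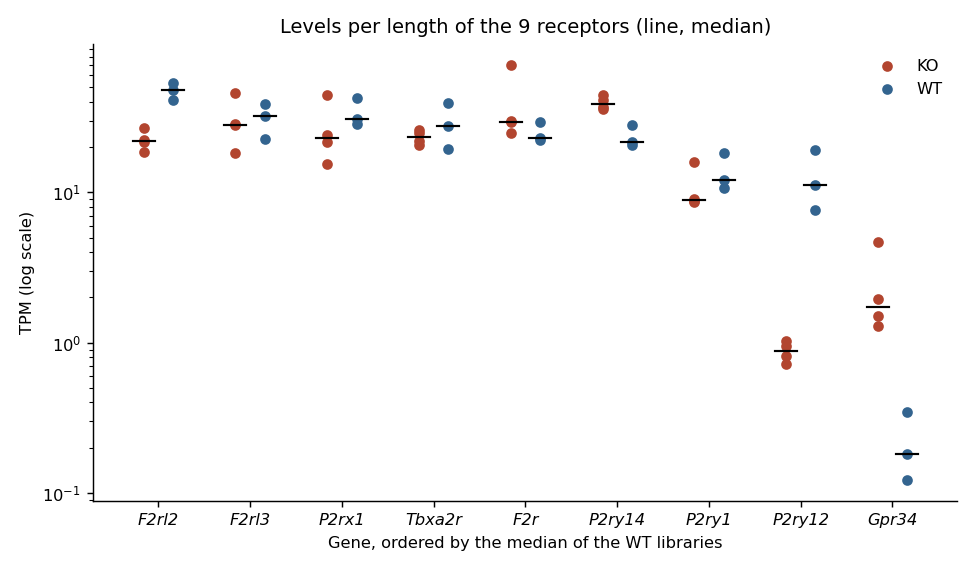
TPM (log scale) of the 9 receptors, ordered by the WT median, in the KO libraries (left of each pair) and the WT libraries (right); points are libraries and lines medians. P2ry14 has the highest KO median (39.0 TPM) and F2rl2 the highest WT median (48.4 TPM), and P2ry12 lies below the WT libraries in all KO libraries. Of the P2ry14 TPM in KO, 21.2% to 41.2% came from a 339 nt transcript with few reads. Without that transcript F2r would have the highest KO median.

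The balance within receptor pairs differed between the groups in every library. P2ry12 made up 10.5%, 7.42%, 8.64% and 5.62% of the TPM of both ADP receptors in KO, against 61.3%, 41.8% and 38.0% in WT. F2r made up 61.3%, 53.3%, 57.4% and 72.4% of the sum of F2r and F2rl2 in KO, against 30.1%, 34.9% and 37.7% in WT. F2rl2 made up 50.4%, 43.4%, 44.1% and 36.9% of the sum with F2rl3 in KO, against 57.8%, 64.8% and 60.02% in WT. All 3 shares kept the groups apart, but each holds P2ry12 or F2rl2, whose own levels did not overlap. The sum of the thrombin receptors did not: it was 66.2, 75.0, 80.1 and 144 TPM in KO, against 115, 86.1 and 109.9 TPM in WT, with KO replicate 4 highest through its F2r. The sum of the ADP receptors was 9.78, 9.75, 9.51 and 16.9 TPM in KO, against 31.4, 18.3 and 29.4 TPM in WT, and did not overlap.

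P2ry12, F2rl2, P2ry1 and P2rx1, all below 0 in log2 fold change, are known in megakaryocytes and platelets, whose markers fell in KO as given above. F2rl3 (-0.25), also of platelets, and Tbxa2r (-0.42) were below 0 too, but both overlapped between the groups, as did P2rx1. The platelet chemokine gene Ppbp averaged 17.02 ± 3.26 CPM in KO and 2460 ± 1061 CPM in WT, while Gata1, Nfe2, Fli1 and Itga2b did not pass the test. The part of these markers in the receptors' values was not tested. Beside the higher Gpr34, 3 of 9 tested mast cell and basophil markers rose (Fcer1a at 2.81, Hdc at 3.11 and Csf2rb at 1.80 in log2 fold change, with edgeR adjusted p of 0.0328, 0.0404 and 0.0480). Before adjustment p was below 0.05 for 6 of the 9, all higher, and calls numbered 3 with DESeq2 and 4 with limma voom. Fcer1a and Hdc lost the call without KO replicates 1, 2 and 3 and without WT replicates 2 and 3, each in turn, and Csf2rb without any library but KO replicate 1, with adjusted p up to 0.159. Hdc was at 4.15 without WT replicate 1. In the libraries with Y-linked RNA the adjusted p was 0.0826 for Hdc and 0.0952 for Csf2rb, and with protein-coding transcripts alone 0.185 and 0.0563. The 11 listed together were at 2346 to 3571 TPM in KO and 1603 to 2145 TPM in WT, mostly from the proteoglycan gene Srgn (1675 to 2006 TPM in KO and 1533 to 1795 TPM in WT, log2 fold change -0.16), which many blood cells express. The other 10 were at 578 to 1566 TPM in KO and 70.2 to 398 TPM in WT. Among them Prss34 was at 259 to 605 TPM in KO and 0.0379 to 156 TPM in WT. Mcpt8 was at 124 to 630 TPM in KO and 1.13 to 111 TPM in WT. Neither passed (edgeR adjusted p = 0.443 and 0.290). The mast cell protease Tpsb2 had 0 reads in all libraries, and the part of these markers was not tested. Of 14 tested macrophage, monocyte and microglia markers edgeR called 0 (0 also at an unadjusted p below 0.05, with DESeq2 and with limma voom), with sums of 46.8 to 80.1 TPM in KO and 33.4 to 70.8 TPM in WT, and Adgre1 had 0 reads in WT.

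Several receptors lie close together in the genome. P2ry14 and P2ry12 sit 62.7 kb apart on the minus strand, inside the larger gene Med12l on the plus strand, near the related genes Gpr171 and P2ry13. Within this cluster P2ry12 was at -4.10 and P2ry14 at 0.77. P2ry13, an ADP receptor that lies between P2ry14 and P2ry12, had a log2 fold change of 1.83 (SE 1.00, edgeR adjusted p = 0.439) and Gpr171 one of 0.55 (SE 0.20, adjusted p = 0.231). Neither passed the test. P2ry13 had 0 reads in WT replicate 2, and its value was 1.23 without that library, 1.24 without KO replicate 4 and 3.02 without WT replicate 3. Med12l, which encodes a Mediator subunit, was at -0.28 (SE 0.21, adjusted p = 0.567). It shared 9 of the 2546 exon bases of P2ry12 and 0 of the 11059 of P2ry14.

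On chromosome 13, F2r and F2rl2 lie 78.4 kb apart, with F2rl2 inside Iqgap2 on the opposite strand and 0 exon bases shared. Iqgap2, a scaffold protein gene, was at 0.32 (SE 0.16, adjusted p = 0.394) where F2rl2 was at -1.31. F2rl1, the trypsin receptor PAR2 of the same cluster, had 3, 2, 7 and 9 reads in KO and 0 in each WT library and was not tested. On the X chromosome Gpr34 lies inside Cask on the opposite strand, again with 0 exon bases shared, and Cask, a scaffold kinase gene, was at 0.50 (SE 0.37, adjusted p = 0.556). Its neighbour Gpr82 had 7, 2, 6 and 27 reads in KO and 0, 0 and 1 in WT, too few to be tested. Of all 50 tested genes within 200 kb of a receptor, leaving out the 9, edgeR called 0, with 4 at an unadjusted p below 0.05, and DESeq2 and limma voom called 1 each, Atp2a3. This calcium pump gene, 6.06 kb from P2rx1, was at -0.81 (SE 0.19, edgeR adjusted p = 0.0583), and edgeR too called it without KO replicate 1 (adjusted p = 0.0400) and without WT replicate 3 (adjusted p = 0.0431).

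**Figure D3:**
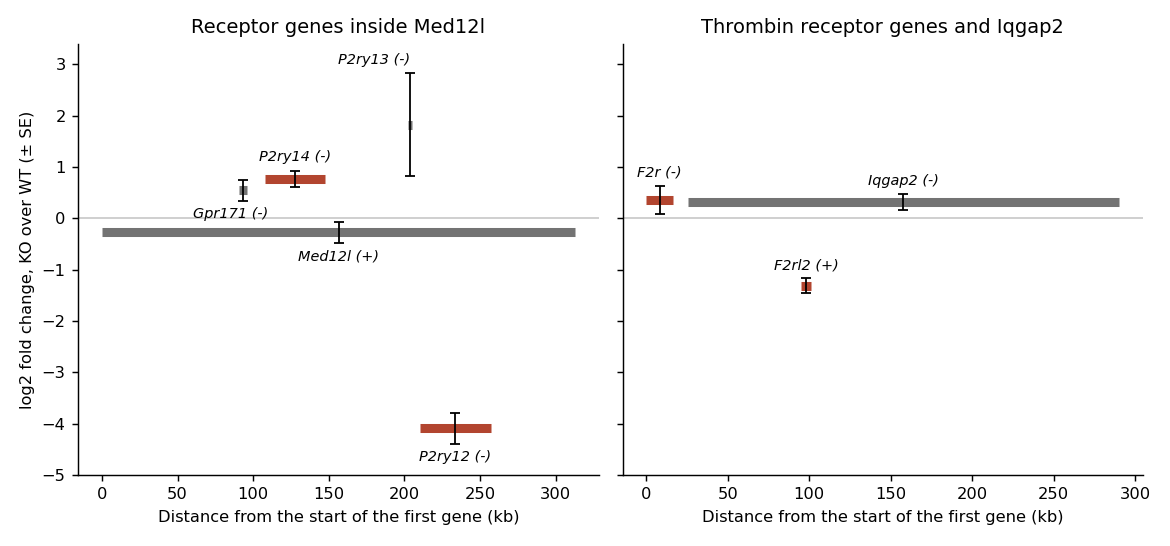
Log2 fold change (KO over WT, bars ± SE) of tested genes in the 2 receptor clusters against distance in kb from the start of the first gene drawn; red bars are the receptors described here, grey bars their neighbours, and bar length is gene length. P2ry12 lies at -4.10 and F2rl2 at -1.31, while the neighbours drawn in grey lie between -0.28 and 1.83.

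The transcripts behind the reads also differed among the receptors. F2r and F2rl2 each have 1 transcript in the table. For P2ry14, a retained-intron transcript of 7795 nt took 51.4%, 32.6%, 31.8% and 47.5% of the estimated reads in KO, against 38.8%, 51.9% and 36.4% in WT. For P2rx1, a retained-intron transcript of 1805 nt took 23.7%, 9.74%, 14.5% and 5.18% in KO, against 6.75%, 50.2% and 10.96% in WT. WT replicate 2 stood apart for P2rx1, and for P2ry14 the groups overlapped. On reads of protein-coding transcripts alone the log2 fold change was 0.84 for P2ry14, -0.35 for P2rx1 and -4.06 for P2ry12. For P2ry1, the 3614 nt transcript took 42.0%, 42.3%, 51.2% and 20.9% in KO and 78.6%, 66.4% and 42.7% in WT. These groups overlapped through WT replicate 3.

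**Figure D4:**
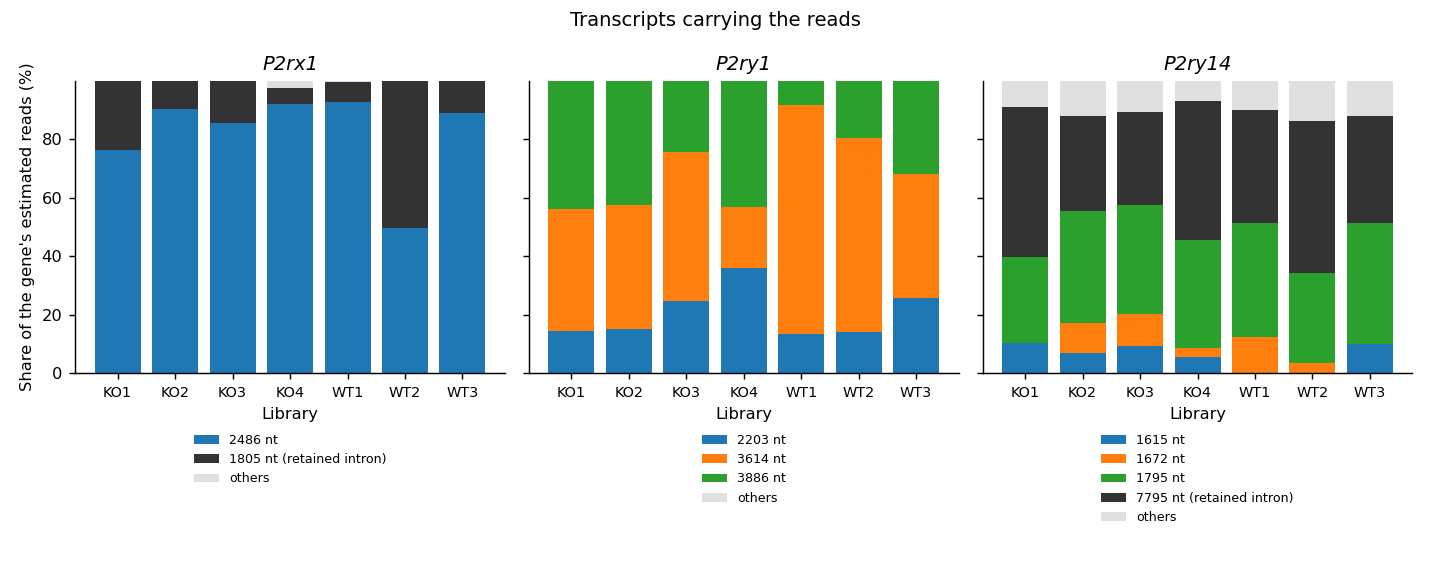
Share of each gene's estimated reads (%) by annotated transcript for P2rx1, P2ry1 and P2ry14, with the 4 KO libraries left of the 3 WT libraries; transcripts are named by length, dark grey marks retained introns and light grey the remaining transcripts. The retained-intron transcript of P2rx1 takes 50.2% in WT replicate 2 and no more than 23.7% elsewhere.

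Other receptors of the same families were mostly low, and edgeR called 0 of the 19 tested of 32 listed (unadjusted p was below 0.05 for 2 higher and 1 lower, and DESeq2 and limma voom each called 0 higher and 1 lower, Ptgir). Gpr171, an orphan P2Y-like receptor, was at 141 ± 27.7 CPM in KO and 96.6 ± 17.6 CPM in WT, and Lpar6, a lysophosphatidic acid receptor, at 83.6 ± 14.7 CPM in KO and 93.7 ± 37.3 CPM in WT. P2rx4, a second ATP-gated channel, was at 41.9 ± 7.72 CPM in KO and 29.8 ± 8.53 CPM in WT (log2 fold change 0.49, adjusted p = 0.378, and 0.25 without WT replicate 2). P2rx7, the channel that opens a large pore in immune cells, was at 2.78 ± 1.38 CPM in KO and 1.19 ± 0.691 CPM in WT (1.22, adjusted p = 0.355) with groups that did not overlap. Ptgir, the prostacyclin receptor that restrains platelets, was at 0.369 ± 0.416 CPM in KO and 3.89 ± 1.40 CPM in WT, also apart (-3.40, SE 0.93, edgeR adjusted p = 0.106). Its adjusted p ran from 0.00403 to 0.266 over the alternatives, and it passed with DESeq2, with limma voom (adjusted p = 0.0320) and when KO replicate 4 was left out (adjusted p = 0.0454). Its log2 fold change was -4.49 without KO replicate 3.

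Among the remaining tested receptors, Ptger3, a prostaglandin E2 receptor, was at 51.2 ± 8.80 CPM in KO and 48.1 ± 18.8 CPM in WT, and Ptger4 at 17.2 ± 4.59 CPM in KO and 19.3 ± 4.75 CPM in WT. P2ry10, a lysophosphatidylserine receptor, was at 5.81 ± 2.03 CPM in KO and 3.08 ± 1.01 CPM in WT (0.91, adjusted p = 0.316). P2ry2, P2ry10b, Lpar4, P2rx6, Gpr18 and Ptger1 lay below 6.5 CPM on average in both groups, with adjusted p from 0.494 to 0.986. Of 3 tested adenosine receptors edgeR called 0 (0 also at an unadjusted p below 0.05, with DESeq2 and with limma voom). P2rx5 and Gpr17 had 0 reads in every library. By a floor of 3 counts this allows up to 0.128 CPM in the shallowest library, on its library size without TMM adjustment.

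Among the genes that act with the receptors, all that passed the edgeR test fell. Over the lists of ligand supply, nucleotide turnover, G proteins, effectors and desensitisation, 15 of 138 tested genes fell and 0 rose with edgeR, where 1.66% of all tested genes fell and 0.599% rose. At an unadjusted p below 0.05 these were 27 lower and 12 higher, DESeq2 called 22 lower and 2 higher, and limma voom 20 lower and 3 higher. The median log2 fold change of the 138 was -0.09, against 0.03 over all tested genes. The lists were drawn up with earlier results of these data known, and Gng11, Trpc6 and Rgs18 are also megakaryocyte markers.

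In ligand supply 3 of 14 tested genes fell, all of the clotting system that makes or inhibits thrombin. F5, the cofactor of the enzyme that makes thrombin, was at 6.50 ± 1.83 CPM in KO and 70.1 ± 29.0 CPM in WT (log2 fold change -3.43, edgeR adjusted p = 0.000308). F10, whose product cuts prothrombin, was at 8.58 ± 5.33 CPM in KO and 31.7 ± 9.15 CPM in WT (-1.88, adjusted p = 0.0404). Serpine2, a thrombin inhibitor, was at 41.6 ± 8.18 CPM in KO and 148 ± 20.0 CPM in WT (-1.83, adjusted p = 0.000381). Of 17 tested genes of nucleotide release and breakdown edgeR called 0 (2 higher at an unadjusted p below 0.05, 0 with DESeq2 and with limma voom).

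Of 22 tested G protein subunits 2 fell. Gnaz, the Gi family subunit of platelets, was at 5.70 ± 2.28 CPM in KO and 42.4 ± 2.63 CPM in WT (-2.89, adjusted p = 0.000331). Gng11, a gamma subunit, was at 113 ± 25.0 CPM in KO and 577 ± 213 CPM in WT (-2.35, adjusted p = 0.000907). Along the Gq arm, from phospholipase C to calcium, 3 of 29 fell. They were Rasgrp2, the calcium-responsive activator of Rap1 (-1.41, adjusted p = 0.00168), Trpc6, a cation channel (-0.98, adjusted p = 0.0222), and Prkca, a protein kinase C (-0.92, adjusted p = 0.0272). The value of Prkca was -0.05 (adjusted p = 0.920) when the fit corrected for transcript length. On the Gi arm 1 of 20 fell, Prkar2b, a regulatory subunit of protein kinase A (-1.03, adjusted p = 0.00684).

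On the G12/13 arm, through which thrombin and thromboxane receptors reach the contractile machinery, 4 of 13 fell. Ppp1r14a, an inhibitor of myosin phosphatase, was at 0.98 ± 0.495 CPM in KO and 18.2 ± 9.78 CPM in WT (-4.22, adjusted p = 0.000747). Mylk, myosin light chain kinase, was at 8.06 ± 3.63 CPM in KO and 63.5 ± 7.20 CPM in WT (-2.98, adjusted p = 0.000564). Rhoc, a small GTPase, was at -2.22 (adjusted p = 0.0404) and Arhgef12, a guanine nucleotide exchange factor coupled to G12/13, at -0.99 (adjusted p = 0.0394, and -0.42 with adjusted p = 0.302 when corrected for transcript length). Among 23 desensitisation genes Rgs10 and Rgs18, which speed the shut-off of G proteins, fell by 2.25 and by 0.84 on the log2 scale (adjusted p = 0.000686 and 0.0235). Of the 23 desensitisation genes, 12 lay above 0 and 11 below. At an unadjusted edgeR p below 0.05, 3 were higher and 4 lower. Of the 15 genes called over these lists, 9 passed under all 18 alternatives. Arhgef12, F10, Prkca, Rgs18, Rhoc and Trpc6 lost the call under 3 to 10 of them, with adjusted p up to 0.920. Without KO replicate 3 or WT replicate 3 all 6 lost it, without KO replicate 2 all but Trpc6, and without WT replicate 2 all but Rgs18. Without KO replicate 1 it was lost for F10, Rgs18 and Rhoc, without WT replicate 1 for Arhgef12, F10 and Rhoc, and without KO replicate 4 for Rhoc.

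**Figure D5:**
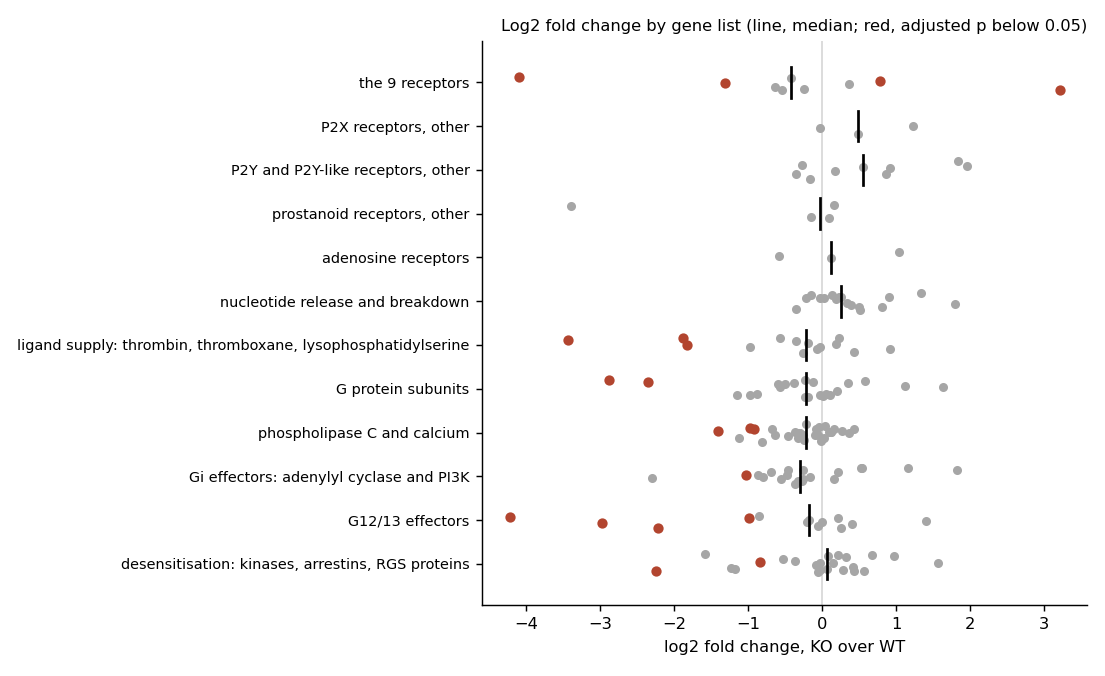
Log2 fold change (KO over WT) of the 9 receptors and of the tested genes of each list; each point is 1 gene, red points have an edgeR adjusted p below 0.05 and the line is the median. All 15 red points of the lists lie below 0, and the 9 receptors spread from -4.10 (P2ry12) to 3.21 (Gpr34).

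The genes whose levels ran most like each receptor's were taken from 11286 protein-coding genes, by Pearson's r of log2 CPM over the 7 libraries. These values mix the difference between the groups with the spread within them. F2rl2 ran closest to Myl9, a myosin light chain of platelets (r = 0.996, and 0.837 for deviations from the group means), and to Shroom4 (0.994 and 0.699). P2ry12 ran closest to Agpat3 (0.991 and 0.685) and Stx11 (0.991 and 0.553), P2ry14 to Gpatch2 (0.989 and 0.889) and Ptprc (0.985 and 0.965), and Gpr34 to Usp40 (0.979 and 0.860) and Fndc3a (0.97 and 0.864). For P2rx1 the closest were Efhd2 (0.972 and 0.978) and Ptgs1, the platelet cyclooxygenase (0.971 and 0.957), and for P2ry1 Tuba4a (0.969 and 0.903) and Hexim2 (0.959 and 0.886). F2r ran closest to Usp8 (0.987 and 0.988) and E130308A19Rik (0.985 and 0.984), F2rl3 to Ino80c (0.984 and 0.981) and Rtkn (0.978 and 0.987), and Tbxa2r to Aptx (0.950 and 0.928) and Cirbp (0.946 and 0.925).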

How the data were processed

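RNA was measured in 7 libraries, grouped by their labels into 4 KO and 3 WT. Per the labels' protocols, libraries were made with the SMART-Seq v4 kit, which does not mark strand. The authors deposited estimated counts, TPM and effective lengths per transcript, which they made with cutadapt and Salmon 0.11.2 on mm10, per the submitters' processing notes; the sources used here do not name the transcript set. Of 112092 transcripts, 111787 matched GENCODE M21 (GRCm38) and 305 did not. Estimated counts were summed per gene and rounded, and TPM were summed per gene to compare levels between genes.

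KO was compared with WT over 14695 genes in R 4.3.3 by edgeR 4.0.16's quasi-likelihood test (TMM scaling, filterByExpr, Benjamini-Hochberg adjustment, threshold 0.05). SE is the absolute log2 fold change over the square root of F. CPM use the TMM-adjusted library size, but the floor of 3 counts uses the unadjusted size. The floor of 3 counts covers counting error only. Replicates of 1 group differed beyond counting noise (chi-square over degrees of freedom from 21.7 to 159).

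The receptors and lists were chosen with earlier results of these data known. Named were all 9 receptors, B4galt1, the tested receptors of the same families, listed genes past the threshold (at most 6 a list), cluster genes (1 is not reported here), called neighbours, the 2 genes most like each receptor and markers that define a cell type or had 0 reads. Atp2a3 and genes named only for an alternative setting were chosen after their values were seen.

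Alternatives were scaling by RLE or upper quartile, no filter, at least 1 CPM in 3 libraries, DESeq2 1.42.0, limma 3.58.1 (voom), a length offset, a replicate block, the libraries with Y-linked RNA, protein-coding genes, each library left out and, added after seeing the data, protein-coding transcripts only.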

Additional observations from a re-analysis of the deposited data

Results flagged for a closer look

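Of 54 quantities examined in the 4 KO libraries, 8 had 1 library far from the other 3 by Dixon's test, where chance gives about 1 in 20 for independent values; groups of 3 were not examined. KO replicate 4 stood high for F2r, at 183 CPM against 77.8 to 94.6 CPM and at 70.7 TPM against 24.8 to 29.8 TPM, for P2ry1 at 15.9 TPM against 8.68 to 9.03 TPM, and for P2rx7 at 4.84 CPM against 1.96 to 2.26 CPM. This library also lacked Y-linked RNA, and the part of that in its values was not tested. KO replicate 3 stood high for Gpr34, at 8.41 CPM against 2.50 to 2.92 CPM. KO replicate 1 stood high for P2ry12 at 2.26 CPM against 1.59 to 1.70 CPM, for B4galt1 at 19.3 CPM against 14.6 to 14.9 CPM, and for Med12l, the gene around P2ry12, at 89.1 CPM against 51.5 to 57.0 CPM.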

How the results depend on the processing

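All 9 receptors kept the sign of their log2 fold change under all 18 alternatives, and the value for P2ry14 with the length offset (0.51) was the only one that moved by more than its replicate SD. Over all genes edgeR called 88 higher and 244 lower; these were 379 and 567 with DESeq2, 269 and 439 with limma voom, 213 and 250 with the length offset, 58 and 182 with replicate number as a block, and 30 to 130 and 157 to 279 with 1 library left out. The share of higher calls was 26.5%, and 46.0% with the length offset, 40.1% with DESeq2 and 38.0% with limma voom. Without KO replicate 3 it was 15.2%. Same-numbered libraries did not deviate together (r of -0.053, -0.120 and -0.039), and no library correlated best with its own number, so the numbers were not taken as pairs.

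In the receptor, ligand and signalling lists 0 were higher with edgeR as reported, against 2 with DESeq2, 3 with limma voom, 3 with the length offset, 1 with the replicate block, 1 in the libraries with Y-linked RNA and 0 to 1 with 1 library left out; Arhgef28 was among each of these. Lower genes numbered 15, 23 with DESeq2 and 10 to 15 with 1 library left out. Neighbours within 200 kb numbered 0, and 1, Atp2a3, with no filter, with at least 1 CPM in 3 libraries, with DESeq2, with limma voom and in the libraries with Y-linked RNA, or 0 to 1 with 1 library left out.

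Log2 fold changes of 7 genes turned sign under some setting, and none of these passed any test. With 1 library left out they ran from -0.47 to 0.037 for B4galt1, -0.37 to 0.19 for Lpar6, -0.25 to 0.21 for P2rx6, -0.42 to 0.39 for P2ry2, -0.67 to 0.90 for P2ry10b, -0.18 to 0.30 for Ptger1 and -0.23 to 0.29 for Ptger3. In the libraries with Y-linked RNA Lpar6 turned to 0.30, P2ry2 to -0.54, P2ry10b to 0.71 and Ptger1 to -0.037. With limma voom P2ry2 turned to -0.11, P2ry10b to 0.00020 and Ptger3 to -0.14, with the length offset P2ry2 to -0.013, and with the replicate block P2ry2 to -0.46 and Ptger1 to -0.15. The cause of these changes was not tested. Values of P2ry12 in KO and Gpr34 in WT rest on few reads, so depth limits the size of their fold changes.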
